A study of Mus musculus with 29 samples.

Results

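The comparison described here is the difference between 2 mouse lines in how control muscle responded to fasting. It used the 14 control libraries of a series of 29, and every expressed gene was tested for a difference between the response of the p110alpha line and that of the p110beta line. Of 48023 genes counted, 12290 were expressed well enough to be tested. The series measured mRNA by sequencing in tibialis anterior, a mostly fast-twitch muscle of the lower leg, from male mice given as C57BL/6J and 2 to 3 months old. The lines were bred to delete a catalytic subunit of phosphoinositide 3-kinase, the lipid kinase downstream of the insulin receptor, from muscle. In the p110alpha line (the α line) exon 1 of Pik3ca is floxed, and in the p110beta line (the β line) exon 2 of Pik3cb is floxed. The controls, labelled p110alpha.WT and p110beta.WT, carry the floxed alleles without Cre, so both subunits are intact in them. The knockouts of each line carry Cre under the human α-skeletal actin promoter, which acts in muscle fibers and not in the other cells of the tissue. Fed groups were sampled without fasting and fasted groups after 24 h without food. There were 4 fed and 4 fasted α-line controls, and 3 fed and 3 fasted β-line controls. The same difference was also computed in the 15 knockout libraries, which the comparison of controls does not use.

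The lines come from separate crosses, and the study describes the β-floxed mice as carrying less C57BL/6 genome than the α-floxed mice. The labels and methods give no hour of sampling. Line background and time of day therefore cannot be told apart in any value below.

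Fasting raises in muscle the genes that burn fat, spare glucose and break down protein. Part of this response is carried by circulating signals, such as glucocorticoids and fatty acids, and by low insulin, which frees the FOXO transcription factors. Muscle also has a circadian clock: BMAL1 (the product of Arntl) and CLOCK drive the Per, Cry and Nr1d1 genes, whose products in turn hold BMAL1 and CLOCK back. Transcripts of clock genes move through the day, so their level depends on the hour of sampling as well as on the state of the mouse.

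Assigned reads ran from 5351935 to 11653239 over the 14 control libraries, and mitochondrially encoded genes took 7.73 to 11.5% of them. Mice are numbered as in the sample titles. Pairs of libraries within a group differed by more than counting noise (chi-square per degree of freedom 5.86 to 30.9 in 18 pairs), so none was a repeat of another. For line identity, 35 genes at least 4-fold apart between the fed lines were read in the fasted controls. The fed libraries chose these genes, so they are not checked by them. With the fed α-line mean at 0 and the fed β-line mean at 1, fasted medians were 0 to 0.0669 in the α line and 0.864 to 0.980 in the β line. Nearer the fed β line were 8.57 to 20% and 68.6 to 74.3% of the genes. By the median, no fasted control went against its line label. The 10 muscle fiber markers summed to between 137166 and 192534 CPM, and lymphocyte and neutrophil markers were at or near 0. Adipocyte markers stood apart in fasted β-line mice 23 and 24, at 199 and 191 CPM summed over 8 genes, against 0.240 to 21.2 in the other 12 controls, including 3.42 in fasted β-line mouse 25. All 8 markers were detected in mice 23 and 24, and up to 6 were at 0 elsewhere. Slow fiber markers were highest in mouse 25, at 241 CPM over 7 genes against 74.3 to 150 elsewhere. Labels do not say that these mice were littermates or handled together, so p-values measure only the spread between these mice.

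**Figure D1:**
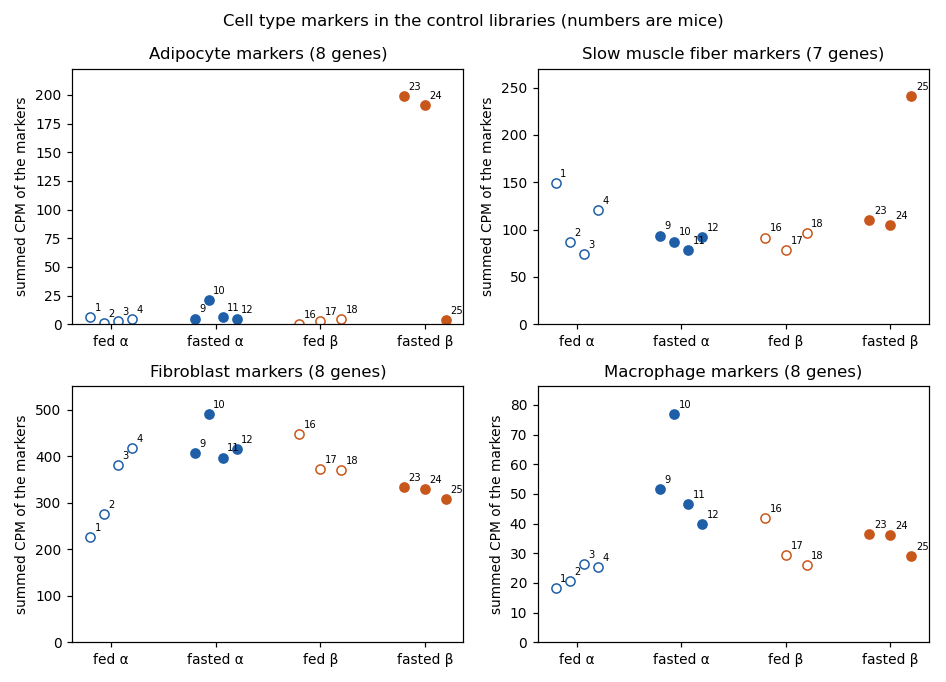
Summed CPM (scaled read counts, y axis) of the marker genes of 4 cell types in each of the 14 control libraries, by group (x axis), with open points for fed and filled points for fasted mice, blue for the α line and orange for the β line, and the mouse number beside each point. Fasted β-line mice 23 and 24 stand at 199 and 191 CPM for adipocyte markers and mouse 25 at 241 CPM for slow fiber markers, while fibroblast and macrophage markers had their highest median among these groups in the fasted α-line mice.

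Levels below are CPM after scaling of the library sizes over all 29 libraries, given per mouse in the order of the mouse numbers. A line difference is the log2 response to fasting in α-line controls minus that in β-line controls, with its standard error. It is positive where a gene rose more, or fell less, in the α line. All adjusted p-values are Benjamini-Hochberg values of edgeR's quasi-likelihood test over all genes tested in that set of libraries, and a gene was called at an adjusted p under 0.05.

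Many called genes were shared by the lines. Fasting changed 4046 genes in α-line controls, 32.9% of those tested, with 1980 up (16.1%) and 2066 down (16.8%). It changed 3136 in β-line controls (25.5%), with 1760 up (14.3%) and 1376 down (11.2%). Of these, 975 rose in both, 843 fell in both and 33 moved in opposite directions, so the shared calls made up 44.9% of the α-line calls and 58.0% of the β-line calls. With upper-quartile scaling the β-line split turned to 1435 up and 1804 down. Across the 12290 genes the responses had a Pearson correlation of 0.583 and 70.4% had the same sign. Genes are not independent replicates, and no mouse was shared between the responses.

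The line difference itself was called for 167 genes, 1.36% of those tested, with 60 positive (0.488%) and 107 negative (0.871%). Without an adjustment 2221 genes had a p under 0.05. The count moved with single mice: it was 37 without fed β-line mouse 16 and 65 without fed β-line mouse 17. It was 53 and 62 without fasted β-line mice 23 and 24 in turn, 61 without both, and 462 without fasted β-line mouse 25. Leaving out α-line mouse 10 gave 107, and leaving out any of the other 8 controls gave between 112 and 173. Of 60 genes named below that were called, 15 were called in every fit that left out 1 mouse. Calls were lost most often without mouse 16 (39), 23 (35), 17 (33) or 24 (30), and 24 genes were called without mice 23 and 24 together. The 15 were Akt1, Angpt1, Arntl, Dusp1, Fbn1, Mt1, Myl2, Nr1d1, Per2, Prickle3, Sept4, Slc16a9, Slc25a25, Srxn1 and Tmem100. Of these, 10 were also called without mice 23 and 24 together, and Akt1, Per2, Sept4, Slc16a9 and Tmem100 were not (adjusted p = 0.102, 0.0979, 0.137, 0.0888 and 0.0508).

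Most negative genes rose in the β line. Of the 107, 61 rose in β-line controls and did not pass the test in α-line controls, 17 rose in both, and 16 rose in the β line and fell in the α line. The other 13 fell in the α line, 2 of them in both lines. Of the 60 positive genes, 21 rose in the α line alone, 21 fell in the β line alone, 14 rose in the α line and fell in the β line, and 4 fell in both. These calls use the same libraries as the line difference and only describe it.

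The same 167 genes can be read by state. Among the negative genes, fed α-line controls were above fed β-line controls for 54 and fasted β-line controls were above fasted α-line controls for 80, with both true of 27. The remaining 53 differed in the fasted state alone and 27 in the fed state alone. Among the positive genes, 30 were higher in the β line when fed and 41 higher in the α line when fasted. Over all genes tested the lines differed at 2530 genes when fed (20.6%) and at 3761 when fasted (30.6%). When fed, 1470 were higher in the α line (12%) and 1060 higher in the β line (8.62%), and with upper-quartile scaling 1201 and 1294. When fasted, 1864 were higher in the α line (15.2%) and 1897 in the β line (15.4%).

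**Figure D2:**
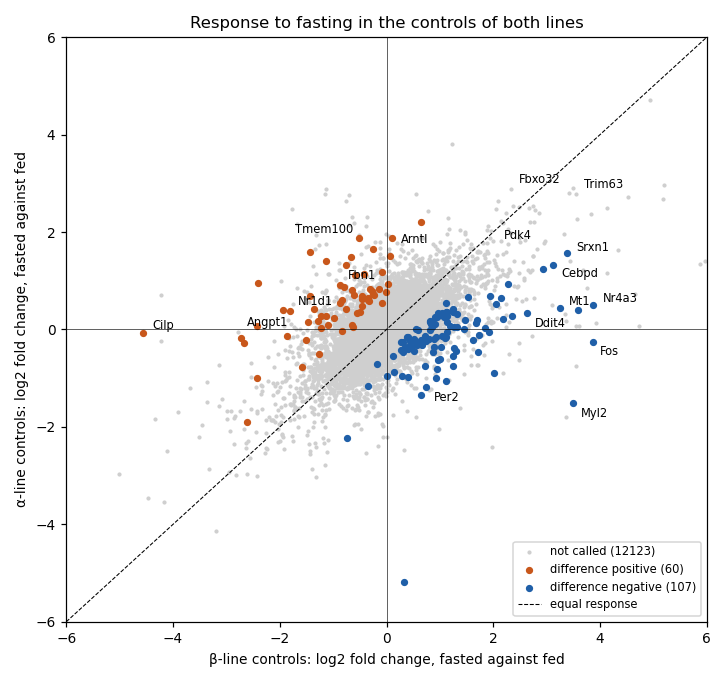
Log2 fold change on fasting in β-line controls (x axis, 3 mice a group) and in α-line controls (y axis, 4 mice a group) for each tested gene, with the 60 positive line differences in orange, the 107 negative ones in blue and the rest in grey; 4 genes fall outside the axes. Nr1d1, Arntl, Tmem100 and Fbn1 lie above the dashed line of equal response, Mt1, Fos, Nr4a3, Ddit4 and Per2 below it, and Fbxo32 and Trim63 rose in both lines.

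Several of the genes best known for the fasting response of muscle rose in both lines. Fbxo32, the ubiquitin ligase atrogin-1, rose by 2.88 on the log2 scale in the α line and 2.34 in the β line, and its line difference of 0.55 ± 0.16 was not called (adjusted p = 0.0853). Trim63, the ubiquitin ligase MuRF1, rose by 2.77 and 3.56, with a line difference of -0.78 ± 0.21 (adjusted p = 0.0647). Pdk4, the kinase that switches off pyruvate dehydrogenase, went from 950, 1581, 2372 and 2765 CPM in fed to 6575, 5393, 7329 and 6798 CPM in fasted α-line controls. Its β-line values went from 375, 885 and 924 CPM to 5118, 5778 and 6038 CPM. The groups do not overlap in either line, and the line difference was -1.18 ± 0.43 (adjusted p = 0.157). Cdkn1a, a cell cycle inhibitor, rose by 2.03 and 1.95, and Sesn1, a brake on growth signaling, by 1.99 and 2.33. Their line differences were 0.08 ± 0.30 and -0.35 ± 0.33. Angptl4, an inhibitor of lipoprotein lipase, rose by 1.51 and 2.74, and Srebf1, a regulator of lipid synthesis, fell by 0.80 and 1.28, with line differences of -1.23 ± 0.53 and 0.48 ± 0.25 that were not called. The value of Angptl4 was -0.60 without mouse 4 and -0.32 without mice 23 and 24, and not called in either. Pik3ca and Pik3cb, the genes floxed in the lines, had line differences of 0.75 ± 0.18 and 0.55 ± 0.19 (adjusted p = 0.0505 and 0.132). Pik3ca was 128 ± 18.6 and 179 ± 9.58 CPM in fed and fasted α-line controls and 138 ± 16.0 and 116 ± 14.9 CPM in the β line (mean ± SD), so both controls expressed it.

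Clock genes gave the positive gene with the lowest p. Nr1d1 encodes REV-ERBα, a nuclear receptor that represses Arntl, and lies on chromosome 11 from 98767932 to 98775333 on the minus strand of GRCm38. Fed α-line controls had 33.6, 20.8, 18.0 and 30.2 CPM and fasted ones 35.7, 35.6, 34.2 and 28.3 CPM. Fed β-line controls had 65.2, 60.9 and 66.0 CPM and fasted ones 19.4, 19.1 and 16.5 CPM. All fed β-line mice were thus above every other control and the fasted α-line mice were above the fasted β-line mice. It fell by 1.81 ± 0.18 in the β line and did not pass the test in the α line (0.37 ± 0.15), and the line difference was 2.18 ± 0.23 (adjusted p = 0.000446). Its last 1075 bases overlap Thra on the other strand, and reads there may not be told apart. The line difference of Thra was 0.19 ± 0.13 (adjusted p = 0.490).

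Arntl, on chromosome 7 from 113207465 to 113314126 on the plus strand, rose in the α line only by the test within each line. It went from 7.80, 6.27, 10.7 and 6.17 CPM to 29.5, 23.1, 32.7 and 25.5 CPM in α-line controls. Its β-line values were 17.4, 14.1 and 12.0 CPM fed and 15.5, 18.3 and 13.2 CPM fasted. The fed and fasted α-line values lie on either side of all the β-line values. The line difference was 1.78 ± 0.27 (adjusted p = 0.00531). Clock, the partner of BMAL1, rose by 0.34 in the α line and fell by 0.55 in the β line, with a line difference of 0.90 ± 0.17 (adjusted p = 0.0192). This call was lost in 4 of the 14 fits that left out a mouse, with adjusted p up to 0.0606, and without mice 23 and 24 (adjusted p = 0.200).

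The Period genes, whose products repress BMAL1 and CLOCK, went the other way. Per2 went from 41.3, 41.1, 50.5 and 48.5 CPM to 19.6, 24.2, 13.4 and 21.7 CPM in the α line, and from 18.2, 44.9 and 40.5 CPM to 62.4, 62.7 and 49.0 CPM in the β line. Fed and fasted mice do not overlap in either line, but fed β-line mouse 16, at 18.2 CPM, was far below its group. The line difference was -1.93 ± 0.33 (adjusted p = 0.0112), -1.60 without mouse 16 (adjusted p = 0.00912), and not called without mice 23 and 24 (adjusted p = 0.0979). Per1 was 125 ± 10.5 and 113 ± 11.9 CPM in fed and fasted α-line controls, and 93.7 ± 6.30 and 155 ± 11.6 CPM in the β line, where it rose by 0.71 (line difference -0.86 ± 0.15, adjusted p = 0.0116). Per3 fell by 0.66 in the α line and was at -0.07 in the β line, and its line difference of -0.59 ± 0.15 just missed the threshold (adjusted p = 0.0569). Nfil3, a repressor under clock control, rose in the β line from 25.2, 39.3 and 40.9 CPM to 110, 115 and 116 CPM. Its α-line values overlapped between fed and fasted mice (43.1 to 75.8 and 55.4 to 88.3 CPM), and the line difference was -1.49 ± 0.29 (adjusted p = 0.0192).

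No line difference was called for the other clock genes described here. Dbp, a transcription factor with a strong daily rhythm, fell by 2.46 in the α line and 1.92 in the β line (line difference -0.54 ± 0.45). Its relative Hlf fell by 1.16 and 0.66, and Tef fell by 0.27 in the α line and was at 0.21 in the β line (line differences -0.50 ± 0.19 and -0.48 ± 0.14). Bhlhe40 and Bhlhe41, which encode the repressors DEC1 and DEC2, fell in both, with line differences of 0.31 ± 0.30 and 0.40 ± 0.23. Cry2 rose by 0.73 and 1.54, while Cry1 and Nr1d2 did not pass the test in either line, and none of their 3 line differences was called (-0.82 ± 0.25, -0.56 ± 0.25 and -0.14 ± 0.17). In all, 3 of 15 core clock genes were called positive and 2 negative, and 1 of 20 clock output factors was called, negative. Over all genes 0.488% were called positive and 0.871% negative. The median line difference was -0.14 for the core list and -0.61 for the output list, against -0.01 over all genes tested.

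**Figure D3:**
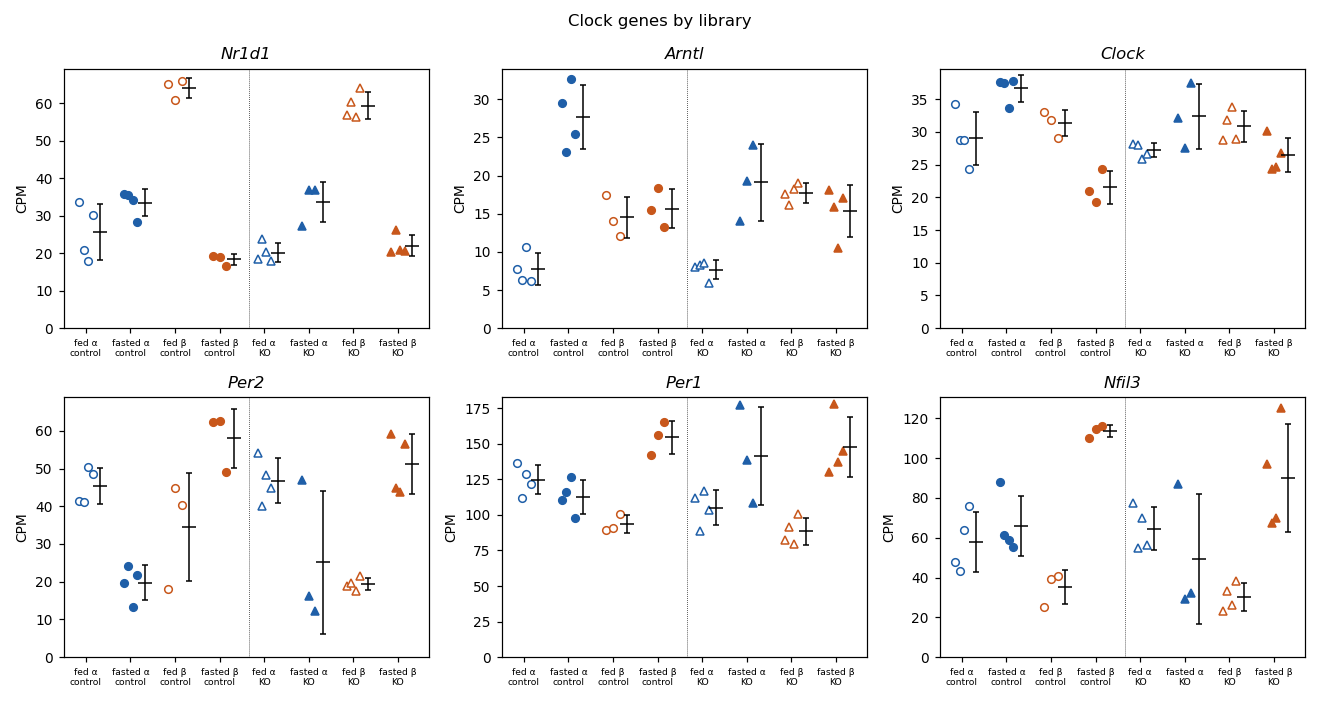
CPM (y axis, from 0) of 6 clock genes in every library of the 8 groups (x axis), with circles for controls to the left of the dotted line, triangles for knockouts (KO) to its right, open symbols for fed and filled ones for fasted mice, and black bars for mean ± SD. Nr1d1 fell from 64.0 to 18.3 CPM in β-line controls with no such fall in the α line, Arntl rose from 7.73 to 27.7 CPM in α-line controls, and the knockouts of each line lie near the controls of that line for Nr1d1.

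The 250 bases before the gene start are shown for Per1, since it is both a clock gene and a glucocorticoid target, at the more 5′ of its 2 RefSeq starts (GRCm38.p6, plus strand, chr11:69098699-69098948, 5′ to 3′). Capitals mark the E-box CACGTG, the letters that BMAL1 and CLOCK bind, which is the same on both strands.
Per1: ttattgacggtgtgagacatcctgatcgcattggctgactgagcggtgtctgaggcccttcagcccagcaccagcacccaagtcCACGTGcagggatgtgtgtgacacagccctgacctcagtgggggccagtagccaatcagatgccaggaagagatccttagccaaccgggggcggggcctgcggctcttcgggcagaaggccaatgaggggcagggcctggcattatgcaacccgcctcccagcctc
The E-box begins 166 bases before the start. It occurred in the same window of 6.86% of 27025 genes with a RefSeq promoter, 10.2% of the 9295 tested genes with one, 8.89% of 45 positive genes (4) and 16.1% of 93 negative genes (15). The windows of Nr1d1, Arntl and Nfil3 hold no such match, and Per2 is not in the table of promoters used. A match describes the letters only.

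Glucocorticoid-responsive genes formed the list with the most calls. Of 27 tested members, 9 were called negative and none positive, against 0.871% of all genes called negative. The median line difference was -0.89, and 22 of the 27 lay below 0. Fasting raised 21 members and lowered none in the β line, with a median of 1.15. In the α line 6 rose and 3 fell, with a median of 0.34. Over all genes 14.3% rose and 11.2% fell in the β line, and 16.1% rose and 16.8% fell in the α line. Without mice 23 and 24 the count was 6 negative of 28 tested and the median -1.16.

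The metallothioneins, small proteins that bind zinc and copper and are induced by metals and glucocorticoids, gave the largest called differences of this list. Mt1 lies on chromosome 8 from 94179082 to 94180327 and Mt2 from 94172664 to 94173568, both on the plus strand. Mt1 was 10.9, 11.8, 21.0 and 27.3 CPM in fed and 21.0, 17.7, 18.5 and 38.2 CPM in fasted α-line controls. The β-line mice went from 8.29, 10.2 and 10.1 CPM to 84.7, 98.2 and 89.7 CPM. Every fasted β-line mouse was above every other control, and the α-line groups overlapped. The β-line rise was 3.25 ± 0.33 and the line difference -2.82 ± 0.42 (adjusted p = 0.00457). Mt2 went from 1.20, 1.62 and 2.29 CPM to 18.8, 19.7 and 23.6 CPM in the β line and overlapped between 2.94 to 14.4 and 7.36 to 13.7 CPM in the α line. Its line difference was -3.17 ± 0.65 (adjusted p = 0.0246) and missed the threshold without mouse 16, 17, 23 or 24 (adjusted p up to 0.0876).

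As Mt1 and Mt2 neighbour each other and moved together, their 250 bases before the start are set side by side (RefSeq, GRCm38.p6, plus strand, 5′ to 3′, chr8:94178839-94179088 for Mt1 and chr8:94172368-94172617 for Mt2). Capitals mark TGCACNC on either strand, a form of the metal response element core that the zinc sensor MTF1 binds. Other forms of the core were not searched.
Mt1: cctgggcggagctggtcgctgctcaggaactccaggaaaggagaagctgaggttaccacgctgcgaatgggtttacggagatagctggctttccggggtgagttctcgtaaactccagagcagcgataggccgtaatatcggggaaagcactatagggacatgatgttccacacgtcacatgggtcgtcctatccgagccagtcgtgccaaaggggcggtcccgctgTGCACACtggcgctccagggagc
Mt2: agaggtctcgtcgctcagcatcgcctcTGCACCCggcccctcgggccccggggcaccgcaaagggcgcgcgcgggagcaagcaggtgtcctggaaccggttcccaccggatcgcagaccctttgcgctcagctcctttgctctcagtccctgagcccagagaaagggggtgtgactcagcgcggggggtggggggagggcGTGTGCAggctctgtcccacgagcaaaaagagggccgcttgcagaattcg
The Mt1 window holds this form once, beginning 23 bases before the start, and the Mt2 window holds it at 223 and 50 bases before. This form stood in the window of 11.8% of all 27025 genes, 12.7% of the tested genes, 26.7% of the positive genes (12 of 45) and 9.68% of the negative genes (9 of 93). The other motifs searched on both strands, each on its own, were the ROR element core TAGGTCA, the D-box TTATGTAA, the cAMP response element TGACGTCA and the glucocorticoid half-site pair ACANNNTGT, held by 2.55, 0.98, 1.77 and 6.76% of all windows. Mt1 holds the last of these once, from 92 bases before the start.

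For several members the fed lines stood apart and the fasted lines did not. Ddit4, which encodes REDD1, an inhibitor of mTORC1 signaling, was 173, 179, 250 and 118 CPM in fed and 237, 184, 261 and 224 CPM in fasted α-line controls. It rose from 54.1, 24.7 and 28.3 CPM to 150, 162 and 355 CPM in the β line. All fed β-line mice were below every other control, and the fasted lines overlapped. The line difference was -2.29 ± 0.44 (adjusted p = 0.0190), while the fasted lines differed by 0.01 on the log2 scale. Glul, glutamine synthetase, followed the same order. It was 601 ± 201 and 514 ± 49.0 CPM in fed and fasted α-line controls and 214 ± 66.1 and 665 ± 187 CPM in the β line (line difference -1.85 ± 0.34, adjusted p = 0.0156). Cebpd, a transcription factor induced by glucocorticoids, rose in both lines, from 57.7 ± 15.5 to 144 ± 28.4 CPM in the α line and from 18.7 ± 5.02 to 164 ± 64.0 CPM in the β line (line difference -1.79 ± 0.37, adjusted p = 0.0246).

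The remaining called members were Per1, Dusp1, Cebpb and Nfkbia, of which the last 2 are named because the count is small, after their values were seen. Cebpb, a relative of Cebpd, and Nfkbia, the inhibitor of NF-κB, had line differences of -1.26 ± 0.26 and -0.82 ± 0.19. They were called in 12 and 1 of the 14 fits that left out a mouse. Fkbp5, a chaperone of the glucocorticoid receptor and a standard marker of its activity, was not called (-0.92 ± 0.67, adjusted p = 0.493). Its fed α-line values spread from 29.7 to 194 CPM and reached the range of the fasted mice (135 to 222 CPM). Fkbp5 went from 24.2, 63.7 and 62.8 CPM to 159, 152 and 244 CPM in the β line. Foxo1, the FOXO factor that low insulin frees, showed the same spread in fed α-line controls, at 31.6, 40.0, 140 and 119 CPM. Its fasted α-line values were 130, 135, 118 and 90.0 CPM, and its line difference of -1.71 ± 0.54 was not called (adjusted p = 0.114) but was -1.98 without mouse 1 (adjusted p = 0.0372). Klf15, a glucocorticoid target that governs amino acid use, rose by 1.33 in the β line (line difference -0.94 ± 0.23, adjusted p = 0.0511).

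Immediate early genes, which cells switch on within minutes of a stimulus, were next. Of 24 tested genes of this list, 7 were called negative (0.871% of all genes) and none positive, with a median line difference of -1.06. The count was 3 with the GC content and exon length correction, 4 with all 29 libraries in 1 fit and 9 without mice 23 and 24. In the β line 16 rose (14.3% of all genes) and none fell, and in the α line 5 rose (16.1% of all genes) and 3 fell. Fos was 2.88, 3.39 and 3.25 CPM in fed and 24.8, 21.1 and 93.0 CPM in fasted β-line controls. It was 7.46, 9.72, 28.9 and 7.06 CPM in fed and 8.69, 9.17, 10.5 and 13.5 CPM in fasted α-line controls. The fasted β-line mice were high with mouse 25 far above the rest, and the α-line groups overlapped. Its line difference was -4.11 ± 0.79 (adjusted p = 0.0192), and -3.07 without mouse 25 (adjusted p = 0.0110). Nr4a3, an orphan nuclear receptor induced by exercise and adrenergic signals, went from 3.01, 4.53 and 4.70 CPM to 27.1, 23.5 and 129 CPM in the β line. It was 14.2 ± 1.35 and 20.2 ± 5.59 CPM in the α line (line difference -3.37 ± 0.69, adjusted p = 0.0246, and -2.09 without mouse 25, adjusted p = 0.00198). Both calls were lost without fed β-line mouse 16 (adjusted p = 0.0657 and 0.0880) or 17 (0.0501 and 0.0655).

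Dusp1, a phosphatase that turns off MAP kinases, fell in the α line from 106, 116, 202 and 89.0 CPM to 53.5, 54.4, 48.3 and 45.1 CPM. The β-line values were 77.9, 77.7 and 85.7 CPM fed and 106, 102 and 169 CPM fasted. Groups do not overlap within either line, and the line difference was -1.98 ± 0.32 (adjusted p = 0.00817). Klf2, a transcription factor, and Ier5 had line differences of -1.93 ± 0.39 and -1.23 ± 0.27. Nr4a1 and Csrnp1, named after their values were seen, completed the list at -1.24 ± 0.28 and -1.81 ± 0.43. Each of these 2 was called in 2 of the 14 fits that left out a mouse, Ier5 in 8 and Klf2 in 13. Mouse 25 also had the highest slow fiber markers of the controls, and their part in these values was not tested. Otud1, a deubiquitinase, had the same profile, at 20.0, 13.4 and 94.6 CPM in fasted β-line controls (line difference -2.90 ± 0.67, adjusted p = 0.0429). It was -1.51 without mouse 25 (adjusted p = 0.0171), and was called in 4 of the 14 fits that left out a mouse.

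Genes for lipid use differed in the same direction with fewer calls. In the list of PPAR and fasting lipid targets 3 of 25 were called negative (0.871% of all genes), with a median of -0.58. Of its members 18 rose in the β line (14.3% of all genes) and 10 in the α line (16.1%). Ucp3, a mitochondrial carrier that rises with fatty acid supply, was 249, 332, 553 and 682 CPM in fed and 428, 426, 471 and 352 CPM in fasted α-line controls. It went from 149, 200 and 273 CPM to 736, 782 and 561 CPM in the β line. Its line difference was -1.84 ± 0.38 (adjusted p = 0.0246), and the overlapping gene model Gm10603 on the other strand gave -2.06 ± 0.36. Ppargc1a, which encodes PGC-1α, was 43.6, 50.9 and 51.5 CPM in fed and 105, 110 and 65.9 CPM in fasted β-line controls (line difference -1.09 ± 0.21, adjusted p = 0.0200). Pdk2, a sister of Pdk4, differed by -0.58 ± 0.13 (adjusted p = 0.0368) and was called in 4 of the 14 fits that left out a mouse. Without mice 23 and 24 the values of Ucp3, Ppargc1a and Pdk2 were -1.54, -0.59 and -0.38.

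Fatty acid uptake and storage gave 3 negative calls of 24 (0.871% of all genes), with a median of -0.73. Dgat2, which makes triglyceride, went from 15.1, 20.4 and 16.0 CPM to 82.1, 73.5 and 71.5 CPM in the β line. In the α line it went from 18.8, 23.2, 29.7 and 34.7 CPM to 42.3, 29.6, 42.8 and 50.3 CPM (line difference -1.50 ± 0.28, adjusted p = 0.0177). The difference of Dgat2 was called in 12 of the 14 fits that left out a mouse, and was -1.42 without mice 23 and 24 together. The transporters Slc27a4 and Slc27a1 differed by -0.81 ± 0.18 and -0.75 ± 0.17, called in 4 and 6 of the 14 fits that left out a mouse. In the fatty acid oxidation list 2 of 30 genes were called, among them Acad11 (-0.66 ± 0.14), and Cpt1b, the carnitine shuttle enzyme of muscle, was not (-1.03 ± 0.46, adjusted p = 0.248). Acacb, the acetyl-CoA carboxylase that restrains the shuttle, rose by 0.67 and 1.53 (line difference -0.86 ± 0.18). Fbp2, muscle fructose bisphosphatase, rose by 0.94 and 2.28, at 213, 196 and 91.7 CPM in fasted β-line controls (line difference -1.34 ± 0.29, adjusted p = 0.0312). It was called in 5 of the 14 fits that left out a mouse, and without mice 23 and 24 it was -0.48 (adjusted p = 0.422).

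Adipocyte markers were high in 2 of the 3 fasted β-line libraries behind these values. Without mice 23 and 24, which leaves a single fasted β-line mouse, the medians of the 3 lipid lists were -0.32, -0.36 and -0.17. With all mice they were -0.58, -0.73 and -0.31, so all 3 moved toward 0. These lists are also given below for the knockouts, where the line difference also holds that between deleting p110α and deleting p110β. The part of adipocyte RNA in these values was not tested. Scd1, a desaturase abundant in fat, was 210 and 188 CPM in mice 23 and 24 and 7.55 CPM in mouse 25. Its line difference was -3.80 ± 1.07 (adjusted p = 0.0820), and 0.35 without those mice.

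Of 23 genes in the cholesterol synthesis list, 1 was called positive and 1 negative (0.488% and 0.871% of all genes). The positive one was Insig1, which retains the sterol sensor in the endoplasmic reticulum. It rose in the α line from 10.9 ± 1.34 to 19.3 ± 1.49 CPM and was 13.2 ± 2.19 and 11.9 ± 1.45 CPM in the β line (line difference 0.98 ± 0.21, adjusted p = 0.0273).

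In the antioxidant list the called genes besides the metallothioneins were Srxn1 and Nqo1, both targets of the transcription factor NRF2. Srxn1, sulfiredoxin, rose in both lines. It went from 20.2, 17.5, 18.2 and 22.4 CPM to 69.3, 60.4, 63.9 and 39.6 CPM in the α line, and from 16.2, 12.8 and 16.3 CPM to 143, 156 and 176 CPM in the β line. The fasted groups do not overlap, and the line difference of -1.81 ± 0.23 (adjusted p = 0.00118) was called in every fit that left out a mouse and without mice 23 and 24 together (adjusted p = 0.00491). Nqo1, a quinone reductase, and Osgin1, a stress-induced gene outside the list, differed by -0.85 ± 0.18 and -1.95 ± 0.39. They were called in 6 and 11 of the 14 fits that left out a mouse, and were -0.64 and -1.70 without mice 23 and 24. In all, 4 of 26 genes of this list were called negative (0.871% of all genes), with a median of -0.33.

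Extracellular matrix genes formed the list with the most positive calls, 5 of 29, against 0.488% of all genes, and 3 of 30 tested without mice 23 and 24. The median line difference was 0.62, and 24 of 29 lay above 0. In the β line 11 fell and 3 rose, against 11.2% and 14.3% of all genes. In the α line 11 rose and 3 fell, against 16.1% and 16.8% of all genes. Fbn1, fibrillin-1 of elastic microfibrils, went from 11.6, 10.5, 11.4 and 10.9 CPM to 18.9, 22.2, 18.0 and 23.8 CPM in the α line. The β-line mice went from 17.7, 11.6 and 16.6 CPM to 8.06, 8.90 and 8.40 CPM. Fed and fasted mice do not overlap in either line, and the directions were opposite. The line difference was 1.78 ± 0.21 (adjusted p = 0.000649). Col5a3 and Col3a1, chains of fibrillar collagens, had 1.18 ± 0.22 and 1.20 ± 0.27. Mmp14, a membrane matrix protease, had 1.15 ± 0.27, and Timp2, an inhibitor of matrix proteases, 0.74 ± 0.17 (adjusted p = 0.0177, 0.0380, 0.0450 and 0.0369 in this order). In the same order they were called in 13, 5, 2 and 5 of the 14 fits that left out a mouse.

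Marker sums of fibroblasts and macrophages were read beside these genes. Fibroblast markers summed to 226 to 418 and 397 to 492 CPM in fed and fasted α-line controls, and to 370 to 447 and 309 to 335 CPM in the β line. These 8 markers include collagen genes, Col3a1 among them, so their sums are not separate from the matrix values. Macrophage markers went from 18.4 to 26.4 CPM to 39.9 to 77.0 CPM in the α line and were 25.9 to 42.0 and 29.1 to 36.5 CPM in the β line. In bulk muscle, fewer cells of a type and less RNA per cell cannot be told apart, and the part of these cells in the matrix values was not tested. Lyz2, a lysozyme of macrophages, rose in the α line from 9.96 ± 2.00 to 27.9 ± 6.13 CPM and was 18.3 ± 6.36 and 19.3 ± 1.14 CPM in the β line (line difference 1.45 ± 0.30, adjusted p = 0.0246).

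**Figure D4:**
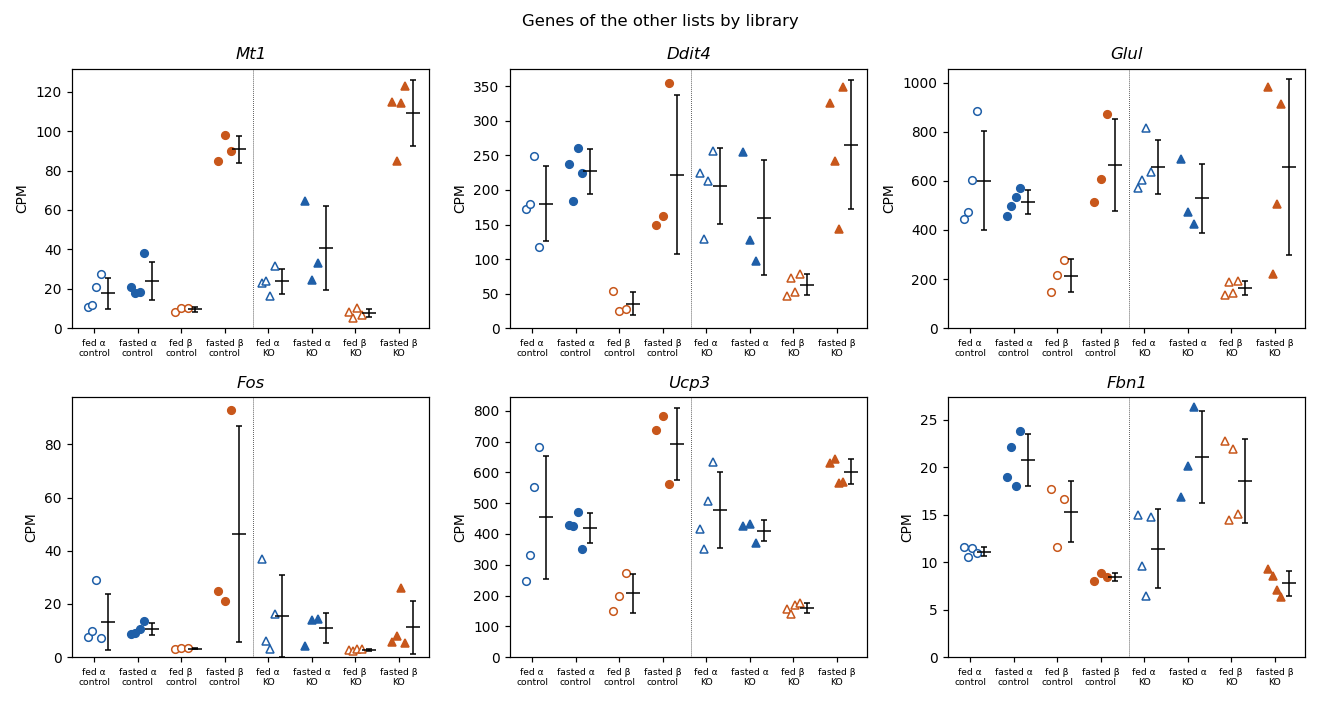
CPM (y axis, from 0) of Mt1, Ddit4, Glul, Fos, Ucp3 and Fbn1 in every library of the 8 groups (x axis), with circles for controls, triangles for knockouts (KO), open symbols for fed and filled ones for fasted mice, and black bars for mean ± SD. Among the controls, fed β-line mice were lowest for Ddit4, at 35.7 CPM on average, fasted β-line mice were highest for Mt1, at 90.9 CPM, and Fbn1 rose in the α line and fell in the β line.

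Several other lists held 1 or 2 calls each. With 1.36% of all genes called, nothing is read from counts this small. Of the insulin signaling list 1 of 31 genes was called. Akt1, the kinase that PI3K lipids activate, was 54.7 ± 2.35 and 47.8 ± 4.65 CPM in fed and fasted α-line controls. Among β-line controls it rose from 64.0, 56.9 and 62.6 CPM to 136, 118 and 87.2 CPM (line difference -1.07 ± 0.17, adjusted p = 0.00815, and -0.69 without mice 23 and 24, adjusted p = 0.102). Among chaperones 2 of 27 were called: Hspa5, the chaperone of the endoplasmic reticulum, at -0.71 ± 0.15, and Bag3, a co-chaperone of muscle, at -0.70 ± 0.14. Both rose in the β line only by the tests within each line, and no chaperone was called without mice 23 and 24. Of the amino acid transporters Slc38a3 fell in the α line (line difference -1.01 ± 0.22) and Slc38a4 fell in the β line (1.45 ± 0.33). Wipi1 was the single autophagy gene called of 45 (-0.70 ± 0.16, and -0.39 without mice 23 and 24). Scn4a, the sodium channel of muscle, was the single one of 18 in the neuromuscular list (-0.53 ± 0.13). They were called in 4 and 2 of the 14 fits that left out a mouse. Txnip, which restrains glucose uptake, was not called (0.56 ± 0.21).

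Myl2, the slow and cardiac myosin light chain, had the largest negative value among the called genes named here. It was 6.13, 1.28, 0.582 and 7.96 CPM in fed and 2.17, 1.43, 0.919 and 1.39 CPM in fasted α-line controls. It went from 1.20, 0.646 and 0.241 CPM to 8.94, 7.12 and 8.26 CPM in the β line. All 3 fasted β-line mice were above the fed β-line mice, while the fed α-line mice reached the same range. The line difference was -5.00 ± 0.86 (adjusted p = 0.0112). The other 6 slow fiber markers were not called, but the median of all 7 was -2.20 and 6 lay below 0. In the β line 3 rose (14.3% of all genes) and in the α line 3 fell (16.8% of all genes). With all 29 libraries in 1 fit 3 of the 7 were called negative (119 of 12760 genes), with a median of -2.17. The median was -1.31 without mouse 25 and -3.43 without mice 23 and 24.

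Tmem100 and Cldn5, both of endothelium, were among the largest positive differences. Tmem100, a membrane protein, went from 16.4, 17.7, 14.6 and 12.6 CPM to 41.8, 57.9, 86.9 and 37.3 CPM in the α line, and was 7.02 ± 0.553 and 4.92 ± 0.912 CPM in the β line (line difference 2.39 ± 0.39, adjusted p = 0.00815). Cldn5, the claudin of endothelial junctions, rose by 1.33 in the α line (2.09 ± 0.43, adjusted p = 0.0247). None of the 8 endothelial markers was called, and with 1.36% of all genes called nothing is read from that count. Of these markers 6 lay above 0, with a median of 0.28. Angpt1, the ligand of the endothelial receptor TIE2, fell in the β line from 18.2, 18.6 and 17.1 CPM to 5.66, 8.01 and 5.70 CPM. It was 31.6 ± 3.28 and 35.2 ± 3.00 CPM in the α line, with no overlap between the lines in either state (1.63 ± 0.19, adjusted p = 0.000649).

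The other large positive values were Slc16a9, a transporter of the monocarboxylate family, at 1.92 ± 0.31, Sept4, a septin, at 1.73 ± 0.30, Scara3, a scavenger receptor, at 1.71 ± 0.40, and Ptpn4, a tyrosine phosphatase, at 1.67 ± 0.34. Sim1, a transcription factor, had 2.34 ± 0.54, and mouse 25 differed from its group there (0.755, 0.890 and 5.84 CPM in fasted β-line controls). Its value was 3.90 without mouse 25 and 1.07 without mice 23 and 24 (adjusted p = 0.230), and it was called in 2 of the 14 fits that left out a mouse. Cilp, a matrix protein, had the largest positive value among named genes, 4.48 ± 1.01, but its fed β-line controls were 3.49, 64.5 and 83.1 CPM and mouse 16 was at the level of the other groups, where the means were 2.13 to 4.11 CPM. The other large negative values were Slc25a25, a mitochondrial ATP carrier, at -2.18 ± 0.37, Prickle3, of the planar polarity family, at -1.99 ± 0.26, and Arpp21, a cAMP-regulated phosphoprotein, at -1.96 ± 0.38. Prickle3 was 35.8, 33.8 and 34.7 CPM in fasted β-line controls, above all other controls (10.9 to 32.5 CPM), and had an adjusted p of 0.00118.

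Other lists held no call between the lines. With 1.36% of all genes called, lists of these sizes would hold few calls or none at the same share, so nothing is read from their counts. For the responses within each line, 16.1% of all genes rose and 16.8% fell in the α line. In the β line 14.3% rose and 11.2% fell. None of 78 nuclear genes of oxidative phosphorylation was called, although 44 fell in the α line and 15 in the β line (median line difference -0.12). None of 74 cytosolic ribosomal protein genes was called, with 29 falling in the α line and none in the β line (-0.26). The same was true of 37 proteasome genes (17 and 16 rising, -0.16), 20 atrophy ubiquitin ligases (9 and 7 rising, -0.01), 26 genes of the citrate cycle (-0.12), 15 mitochondrially encoded genes (2 falling in each line), 18 genes of glycogen (-0.09), 21 genes of the ATF4 response (-0.32), 24 interferon-induced genes (0.23) and 12 genes of MHC class I (0.29). None was called among 15 cell cycle inhibitors (0.08), 13 polyamine genes (0.09), 10 muscle-secreted factors (-0.16) or 5 arrestin-domain genes including Txnip (0.35). A call in one line and not in the other is not a difference between them.

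The same difference was computed in the 15 knockout libraries, which share no mouse with the controls. There it also holds the difference between deleting p110α and deleting p110β. It was called for 1174 of 12273 genes (9.57%), 558 positive (4.55%) and 616 negative (5.02%). Adipocyte markers summed to 0.123 to 10.1 CPM in these libraries, so none stood apart as mice 23 and 24 did. Of the 60 positive genes 52 were above 0 in the knockouts and 23 were called in the same direction, 38.3%, while 6.66% of all genes were called in the knockouts with the sign of their control value. Of the 107 negative genes 80 were below 0 and 32 were called, 29.9%. None was called in the opposite direction. The medians were 1.41 in the controls and 0.54 in the knockouts for the positive genes, and -1.01 and -0.42 for the negative genes, and 51.8% of all genes had the same sign in both sets. The control values chose these genes, so a median nearer 0 in the knockouts is not read as a smaller line difference there.

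Clock, glucocorticoid and matrix genes were among those called in both sets. Nr1d1 had a line difference of 2.22 ± 0.18 in the knockouts (adjusted p = 9.2e-07), Arntl 1.58 ± 0.26 (adjusted p = 0.00101), Per2 -2.23 ± 0.39 (adjusted p = 0.00182) and Nfil3 -1.91 ± 0.41 (adjusted p = 0.00690). Nr1d1 was 20.1 ± 2.58 and 33.6 ± 5.43 CPM in fed and fasted α-line knockouts and 59.4 ± 3.59 and 22.0 ± 2.82 CPM in the β line. Clock and Per1 were not called, at 0.53 ± 0.17 and -0.26 ± 0.21. Per3, just short of the threshold in controls, had -0.98 ± 0.15 (adjusted p = 0.000456). In the glucocorticoid list 16 of 27 were called negative and 26 of 27 lay below 0, with a median of -1.34. Mt1 had -3.01 ± 0.39 there, Mt2 -5.10 ± 0.49, Ddit4 -2.39 ± 0.43 and Glul -2.25 ± 0.44, while Cebpd was not called (-0.73 ± 0.43). Fkbp5, not called in controls, had -2.34 ± 0.45 (adjusted p = 0.00300). Matrix genes gave 15 positive calls of 29 with a median of 1.02, led by Fbn1 (2.18 ± 0.35), Mmp14 (2.03 ± 0.25) and Col5a3 (1.97 ± 0.24).

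The 3 lipid lists held negative calls and no positive ones in the knockouts, where 5.02% of all genes were called negative. Of PPAR and fasting lipid targets 13 of 25 were called, with a median of -0.65. Fatty acid uptake and storage gave 7 of 23 (-0.38) and fatty acid oxidation 10 of 30 (-0.40). Other genes had no such repeat. In the knockouts Klf2 had 0.90 ± 0.32, on the other side of 0, and Akt1 0.08 ± 0.25. Angpt1, Tmem100 and Cilp, large in controls, had 0.08 ± 0.34, 0.32 ± 0.39 and 0.46 ± 0.64. Ucp3 was called in both sets (-2.08 ± 0.21 in the knockouts), while Ppargc1a and Srxn1 had -0.65 ± 0.22 and -1.11 ± 0.44 and were not called. Whether any of these values differed between controls and knockouts was not tested.

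**Figure D5:**
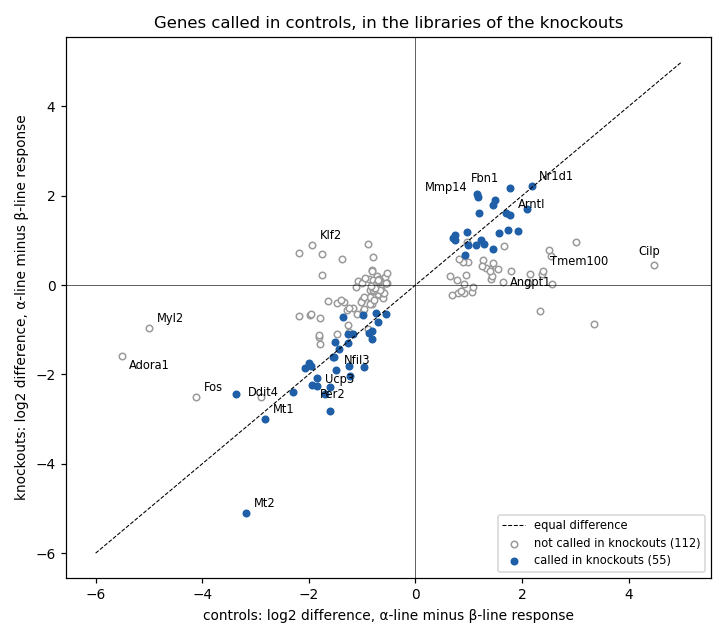
Line difference in controls (x axis, log2, α-line minus β-line response) and the same difference in knockouts (y axis) for the 167 genes called in controls, with filled points for the 55 genes also called in knockouts, open points for the other 112, and a dashed line where both are equal. Nr1d1, Arntl, Mt1 and Ddit4 lie close to the dashed line, while Cilp, Myl2 and Klf2 lie far from it.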

How the data were processed

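Libraries were made from poly(A) RNA with the NEBNext mRNA kit. The deposited table holds raw read counts per gene, which the authors made by aligning to GRCm38 with STAR and counting with featureCounts of Subread, per the labels. Tool versions, annotation release and strand setting: not given in the sources used here. Of 48023 gene rows, 713 without a symbol in GENCODE M21 held 0.0292% of the counts. Counts of the 14 controls were filtered (filterByExpr, minimum count 10, minimum total 15), scaled with TMM and fitted with edgeR 4.0.16 (R 4.3.3, quasi-likelihood, 4 groups, no covariate), testing the interaction, the response of each line and the line difference in each state. The 15 knockouts were fitted alone. Standard errors are the absolute log2 change over the square root of F. Intervals cover the spread between mice only, and depth limits the genes at a few CPM. The code was tested on simulated counts. Alternatives were DESeq2 1.42.0 size factors and Wald test, upper-quartile scaling, limma 3.58.1 voom, other filters, a GC content and exon length correction, all 29 libraries in 1 fit, and each mouse left out. Leaving out mice 23 and 24 together was chosen after seeing the data.

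Named genes were the 12 largest called differences each way at a mean of at least 2 log2 CPM and with a gene name, clock genes, up to 5 genes with the lowest p of each other list, a fixed set of fasting genes, Pik3ca and Pik3cb, and cell type markers, less 2 genes that are not reported here. The genes and the 35 pathway and 15 cell type lists were chosen with earlier results of these data known. Promoters are RefSeq windows of 250 bases before the start, those of chromosome 18 left out. No library was left out of the main fit, and no column of the table was unmapped.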

Additional observations from a re-analysis of the deposited data

Results flagged for a closer look

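The response to fasting differed between the lines, by a test of the difference itself, at 167 genes in controls and 1174 genes in knockouts. The named genes among the 167 are given here by group with their line differences in controls (log2, α-line minus β-line response), and no explanation for any of them was tested. Clock genes were Nr1d1 at 2.18, Arntl at 1.78, Clock at 0.90, Per1 at -0.86, Per2 at -1.93 and Nfil3 at -1.49. Glucocorticoid-responsive genes besides Per1 were Mt1 at -2.82, Mt2 at -3.17, Ddit4 at -2.29, Glul at -1.85, Cebpd at -1.79, Cebpb at -1.26, Nfkbia at -0.82 and Dusp1 at -1.98. Other immediate early genes were Fos at -4.11, Nr4a3 at -3.37, Klf2 at -1.93, Csrnp1 at -1.81, Nr4a1 at -1.24 and Ier5 at -1.23. Genes of lipid and glucose use were Ucp3 at -1.84, Dgat2 at -1.50, Fbp2 at -1.34, Ppargc1a at -1.09, Acacb at -0.86, Slc27a4 at -0.81, Slc27a1 at -0.75, Acad11 at -0.66 and Pdk2 at -0.58. Of the cholesterol synthesis list, Insig1 was at 0.98. Stress-induced genes were Osgin1 at -1.95, Srxn1 at -1.81, Nqo1 at -0.85, Hspa5 at -0.71 and Bag3 at -0.70.

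Matrix and macrophage genes were Fbn1 at 1.78, Col3a1 at 1.20, Col5a3 at 1.18, Mmp14 at 1.15, Timp2 at 0.74, Cilp at 4.48 and Lyz2 at 1.45. Vessel genes were Tmem100 at 2.39, Cldn5 at 2.09 and Angpt1 at 1.63. The remaining positive genes were Sim1 at 2.34, Slc16a9 at 1.92, Sept4 at 1.73, Scara3 at 1.71, Ptpn4 at 1.67 and Slc38a4 at 1.45. The remaining negative genes were Myl2 at -5.00, Otud1 at -2.90, Slc25a25 at -2.18, Prickle3 at -1.99, Arpp21 at -1.96, Akt1 at -1.07, Slc38a3 at -1.01, Wipi1 at -0.70 and Scn4a at -0.53.

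A single mouse lay far from the others of its α-line group in 13 of 168 groups of 4 checked with Dixon's test, 7.74%, where chance alone gives about 1 in 20. Among fed controls the highest mouse stood apart for Col5a3 (14.4 CPM), Fos (28.9 CPM), Nfkbia (42.3 CPM), Sim1 (15.4 CPM) and Tef (468 CPM), and the lowest for Per3 (65.4 CPM). Among fasted controls the highest stood apart for Ier5 (23.2 CPM), Mt1 (38.2 CPM), Mt2 (13.7 CPM) and Nr4a1 (304 CPM), and the lowest for Clock (33.6 CPM), Col5a3 (14.9 CPM) and Mmp14 (8.56 CPM). The β-line groups hold 3 mice and were not checked.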

How the results depend on the processing

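The 167 calls of the line difference became 813 with no low-count filter, 442 with DESeq2's Wald test, 108 with the GC content and exon length correction, 37 to 462 with 1 mouse left out (37 without mouse 16, 462 without mouse 25), and 61 without fasted β-line mice 23 and 24, of which 32 were among the 167. The other 6 settings gave 145 to 199 calls. Calls among the 167 numbered 163 with DESeq2, 98 with the correction and 36 without mouse 16. The lines differed when fasted at 2234 genes with the correction, 2499 to 4121 with 1 mouse left out and 874 without mice 23 and 24. When fed they differed at 1313 (without mouse 16) to 2683 genes with 1 mouse left out. The β-line response had 1990 calls without mice 23 and 24, and the line difference in knockouts had 715 (without mouse 14) to 1266. Of the 60 named and called genes, 33 were called in all other planned settings, and no direction turned. Directions turned for 4 genes that were not among the 167. Cdkn1a was at -0.00037, -0.018, -0.033, -0.044 and -0.083 without mice 2, 10, 18, 23 and 24 in turn and -0.46 without 23 and 24 together, with a highest value of 0.48 without mouse 25. Sesn1 was at -0.55 without mouse 23 to 0.20 without mouse 25, and Dbp and Scd1 were at 0.054 and 0.35 without mice 23 and 24. Where 1 or 2 mice are left out fewer samples enter the fit, and the cause of the other changes was not tested. No paired analysis was possible because the groups share no replicate number. Depth limits genes at a few CPM, such as Myl2, more than the others.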
